A study of Mus musculus with 11 samples.

Results

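Sertoli cells are the somatic nurse cells of the seminiferous tubule, and 9 genes that are widely used to mark them were followed in testes of wild type and Rfx2-/- mice. The 9 genes, Sox9, Gata4, Wt1, Amh, Inha, Inhbb, Gdnf, Fshr and Clu, were chosen by name from the 23074 genes counted, with earlier results of these data known. All 9 passed the filter on low counts, as did 15745 genes in all. RNA-Seq was performed on whole decapsulated testes taken at P21, from 5 wild type (WT) and 6 Rfx2-/- mice, each a separate animal. All mice were on a mixed background of C57BL/6, 129/Sv and FVB/N. In the Rfx2-/- mice exon 7 of Rfx2 had been removed with loxP sites and a universally expressed ACTB-cre, so every cell of the animal lacks it and not the germ cells alone. The mixed-background line kept the neomycin selection cassette at the locus, and WT littermates of like age served as controls where possible. The question is whether the somatic nurse cells of these testes, which lack a factor found in spermatocytes and early spermatids, carried a different level of their own RNAs at an age when the authors saw no histological defect.

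Each Sertoli cell holds many germ cells in its folds and feeds them, and its tight junctions form the blood-testis barrier. In the fetus, SOX9 starts the Sertoli program and anti-Müllerian hormone (AMH) makes the Müllerian ducts regress. After birth, follicle-stimulating hormone from the pituitary acts through FSHR, the Sertoli cell answers with inhibin B, and GDNF from the same cell maintains the spermatogonial stem cells. Sertoli cells stop dividing before puberty, while germ cells of the first wave keep adding to the testis, so the share of Sertoli cell RNA in a whole testis falls as spermatogenesis goes on.

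None of the 9 genes was called, but all 9 were lower on average in Rfx2-/- testes. The fitted log2 fold changes lay between -0.08 for Fshr and -0.50 for Amh, with a median of -0.36, while the median over all tested genes was -0.05 and 54.8% of them were below 0. A gene was called at an adjusted p of at most 0.01 in the quasi-likelihood F-test of edgeR, with p-values adjusted by the method of Benjamini and Hochberg. By this limit 0 of the 9 genes were called, against 2.67% of all tested genes in either direction, 1.94% in the lower direction and 1.25% when a fold change over 2 was also asked for. At an unadjusted p of at most 0.05 in edgeR, 6 of the 9 were lower (Sox9, Amh, Inha, Inhbb, Wt1 and Gata4), beside 23.7% of all tested genes. At an adjusted p of at most 0.05, 2 of the 9 were lower, Inha and Wt1, beside 8.78% of all. The same pair was called at 0.01 by DESeq2's Wald test, where 5.79% of all genes were called lower, and Inha alone by limma voom, where 4.33% were. In whole testes, fewer Sertoli cells, less RNA per Sertoli cell and a larger share of RNA from other cells cannot be told apart.

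The libraries held between 22232097 and 27116903 counts in Rfx2-/- and between 26925157 and 29769483 in WT testes. CPM are counts scaled to library size, here with TMM factors from 0.894 to 1.18, and the highest factor belonged to WT replicates 3 and 5. These mice also had the least RNA of round spermatids, the haploid cells that first appear around this age. The summed CPM of 9 round spermatid markers ran from 5.66 to 368 in WT and from 26.0 to 517 in Rfx2-/- testes, so mice of 1 genotype differed widely in round spermatid RNA. How far spermatogenesis had gone in each mouse was not tested. Rfx2 itself had 326 ± 118 CPM (SD, n = 5) in WT and 304 ± 14.6 CPM (SD, n = 6) in Rfx2-/- testes, with a log2 fold change of -0.10 (SE 0.21, edgeR adjusted p = 0.714). These reads come from all exons together and cannot tell a transcript without exon 7 from an intact one, so they are no check of the genotype.

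The transcription factors come first, since they stand at the head of the Sertoli cell program. Wt1 (ENSMUSG00000016458, chromosome 2 from 105126529 to 105173616 of GRCm38) encodes a zinc finger factor that keeps Sertoli cells from changing fate. It had 99.8, 112, 137, 110 and 140 CPM in the WT mice (replicates 1 to 5, in this order throughout), and 88.4, 81.6, 95.5, 97.9, 97.1 and 94.5 CPM in the Rfx2-/- mice (replicates 6 to 11). All 6 Rfx2-/- testes lay below the lowest WT testis, though by little, since the highest of them and WT replicate 1 were nearly level. The means were 120 ± 17.9 CPM (SD, n = 5) and 92.5 ± 6.31 CPM (SD, n = 6), a log2 fold change of -0.37 (SE 0.09, 95% interval -0.58 to -0.16, edgeR adjusted p = 0.0302). In the fits with 1 mouse left out, the edgeR adjusted p of Wt1 ran from 0.0119 to 0.0784. Genotypes that do not overlap, with Rfx2-/- lower, were found for 2 of the 9 genes, Wt1 and Inha, and for 5.2% of all tested genes.

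Sox9 (ENSMUSG00000000567, chromosome 11 from 112782224 to 112787760), a sex-determining factor of the gonad and a lasting mark of Sertoli nuclei, had 43.6, 53.0, 66.5, 51.5 and 75.9 CPM in WT and 44.1, 37.3, 49.9, 50.1, 43.7 and 47.4 CPM in Rfx2-/- testes. The genotypes overlapped: WT replicate 1 was level with the Rfx2-/- mice, and replicates 3 and 5 stood above every other mouse. The means of 58.1 ± 12.9 CPM (SD, n = 5) and 45.4 ± 4.83 CPM (SD, n = 6) gave a log2 fold change of -0.36 (SE 0.14, 95% interval -0.66 to -0.05), which was not called (edgeR adjusted p = 0.0826).

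Gata4 (ENSMUSG00000021944, chromosome 14 from 63198922 to 63271692) encodes the GATA factor that acts on the promoters of several Sertoli genes, Amh and Inha among them. Its levels were 56.8, 65.8, 86.9, 69.0 and 96.4 CPM in WT and 51.4, 53.5, 62.0, 64.6, 63.3 and 58.7 CPM in Rfx2-/- testes. Only WT replicate 1 fell within the Rfx2-/- range, and replicates 3 and 5 were again the highest. The log2 fold change between 75.0 ± 16.2 CPM (SD, n = 5) and 58.9 ± 5.43 CPM (SD, n = 6) was -0.35 (SE 0.13, 95% interval -0.63 to -0.06) and was not called (edgeR adjusted p = 0.0773).

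Among the hormone genes, the inhibin alpha chain stood out. Inha (ENSMUSG00000032968, chromosome 1 from 75507077 to 75510366) encodes the subunit that turns an activin beta chain into inhibin, the hormone by which the testis lowers FSH. It had 294, 365, 410, 327 and 442 CPM in WT and 277, 257, 261, 284, 270 and 280 CPM in Rfx2-/- testes. All 6 Rfx2-/- testes lay below the lowest WT testis and close to each other. The means were 367 ± 59.7 CPM (SD, n = 5) in WT and 272 ± 10.7 CPM (SD, n = 6) in Rfx2-/- testes, where Inha was at 73.9% of WT, with a log2 fold change of -0.44 (SE 0.10, 95% interval -0.65 to -0.22, edgeR adjusted p = 0.0218). Without WT replicate 1, the lowest WT mouse, its log2 fold change was -0.51 and it was called (edgeR adjusted p = 0.00573), beside 2.49% of all genes called lower in that fit. In the other fits with 1 mouse left out Inha was not called, and its edgeR adjusted p rose to 0.0559 without WT replicate 3.

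Inhbb (ENSMUSG00000037035, chromosome 1 from 119415465 to 119422248), the beta B chain that pairs with the alpha chain to make inhibin B, had 84.6, 109, 124, 98.2 and 147 CPM in WT and 85.6, 77.7, 90.2, 102, 90.0 and 94.6 CPM in Rfx2-/- testes. Here WT replicates 1 and 4 lay within the Rfx2-/- range. The log2 fold change between 113 ± 24.0 CPM (SD, n = 5) and 90.1 ± 8.29 CPM (SD, n = 6) was -0.32 (SE 0.13, 95% interval -0.60 to -0.04), and Inhbb was not called (edgeR adjusted p = 0.0880).

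Amh (ENSMUSG00000035262, chromosome 10 from 80805243 to 80807648) is the hormone of the immature Sertoli cell and is normally shut down as meiosis begins. Its levels were 25.8, 36.0, 52.7, 32.0 and 53.7 CPM in WT and 25.9, 20.6, 33.9, 32.1, 25.6 and 31.6 CPM in Rfx2-/- testes. WT replicates 3 and 5 were far above the rest, while the other 3 WT mice were near the Rfx2-/- mice. Amh had the largest fitted change of the 9, to 70.6% of WT, but also a wide error, with 40.1 ± 12.6 CPM (SD, n = 5) against 28.3 ± 5.08 CPM (SD, n = 6) and a log2 fold change of -0.50 (SE 0.20, 95% interval -0.95 to -0.05, edgeR adjusted p = 0.0920).

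Gdnf (ENSMUSG00000022144, chromosome 15 from 7810846 to 7837575), the growth factor of the stem cell niche, had the fewest reads of the 9, with 56 to 192 counts per mouse. It had 2.71, 3.03, 5.45, 3.12 and 5.97 CPM in WT and 3.19, 2.31, 3.28, 4.09, 3.35 and 2.61 CPM in Rfx2-/- testes. WT replicates 1, 2 and 4 lay inside the Rfx2-/- range and replicates 3 and 5 outside it. The log2 fold change was -0.37 (SE 0.24, 95% interval -0.90 to 0.16, edgeR adjusted p = 0.248), an interval that spans both a fall and a small rise.

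Fshr (ENSMUSG00000032937, chromosome 17 from 88984952 to 89200675, minus strand) encodes the receptor for FSH, which among testis cells is made by Sertoli cells. The upstream stimulatory factors are known to bind an E-box of the letters CACGTG in the promoter of this gene. The 250 bases before its start, at chr17:89200676-89200925 on the minus strand in RefSeq's GRCm38.p6, are shown because they hold this E-box, in capitals, beginning 61 bases before the start.
Fshr: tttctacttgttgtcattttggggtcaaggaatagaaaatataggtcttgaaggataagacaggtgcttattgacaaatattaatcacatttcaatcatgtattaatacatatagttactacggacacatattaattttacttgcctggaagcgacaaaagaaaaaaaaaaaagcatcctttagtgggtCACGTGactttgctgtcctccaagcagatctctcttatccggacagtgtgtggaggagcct
On both strands, 6.02% of the 32851 windows of this length in the RefSeq table held CACGTG, which reads the same on either strand. The letters of the GATA motifs AGATAA (9.99% of windows) and TGATAA (7.94%), of the cyclic AMP element TGACG (17.8%) and of the steroidogenic factor motif AAGGTCA (4.08%), and the X-box of the RFX proteins (1.29%), were not in this window. Of the 9 genes, 4 had a window, and for 2 of these, Fshr and Inhbb, the start was the same base in the GENCODE annotation. In the Inhbb window none of these motifs was found.

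The level of Fshr changed least of the 9. It was 10.01, 12.8, 15.6, 12.6 and 15.4 CPM in WT and 12.3, 10.4, 11.7, 13.6, 14.4 and 12.8 CPM in Rfx2-/- testes. The Rfx2-/- mice all lay inside the WT range, and WT replicate 1 was the lowest mouse of all. With 13.3 ± 2.30 CPM (SD, n = 5) and 12.5 ± 1.39 CPM (SD, n = 6), the log2 fold change was -0.08 (SE 0.13, 95% interval -0.37 to 0.20, edgeR adjusted p = 0.619).

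Clu (ENSMUSG00000022037, chromosome 14 from 65968483 to 65981547) encodes clusterin, a secreted chaperone that is among the main proteins Sertoli cells release. It had 1828, 2200, 2366, 2141 and 2697 CPM in WT and 1804, 1805, 2109, 2110, 1997 and 1978 CPM in Rfx2-/- testes. WT replicate 1 lay with the lowest Rfx2-/- mice and the other 4 WT mice above all Rfx2-/- mice. The log2 fold change between 2246 ± 318 CPM (SD, n = 5) and 1967 ± 137 CPM (SD, n = 6) was -0.19 (SE 0.11, 95% interval -0.44 to 0.06, edgeR adjusted p = 0.209).

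**Figure D1:**
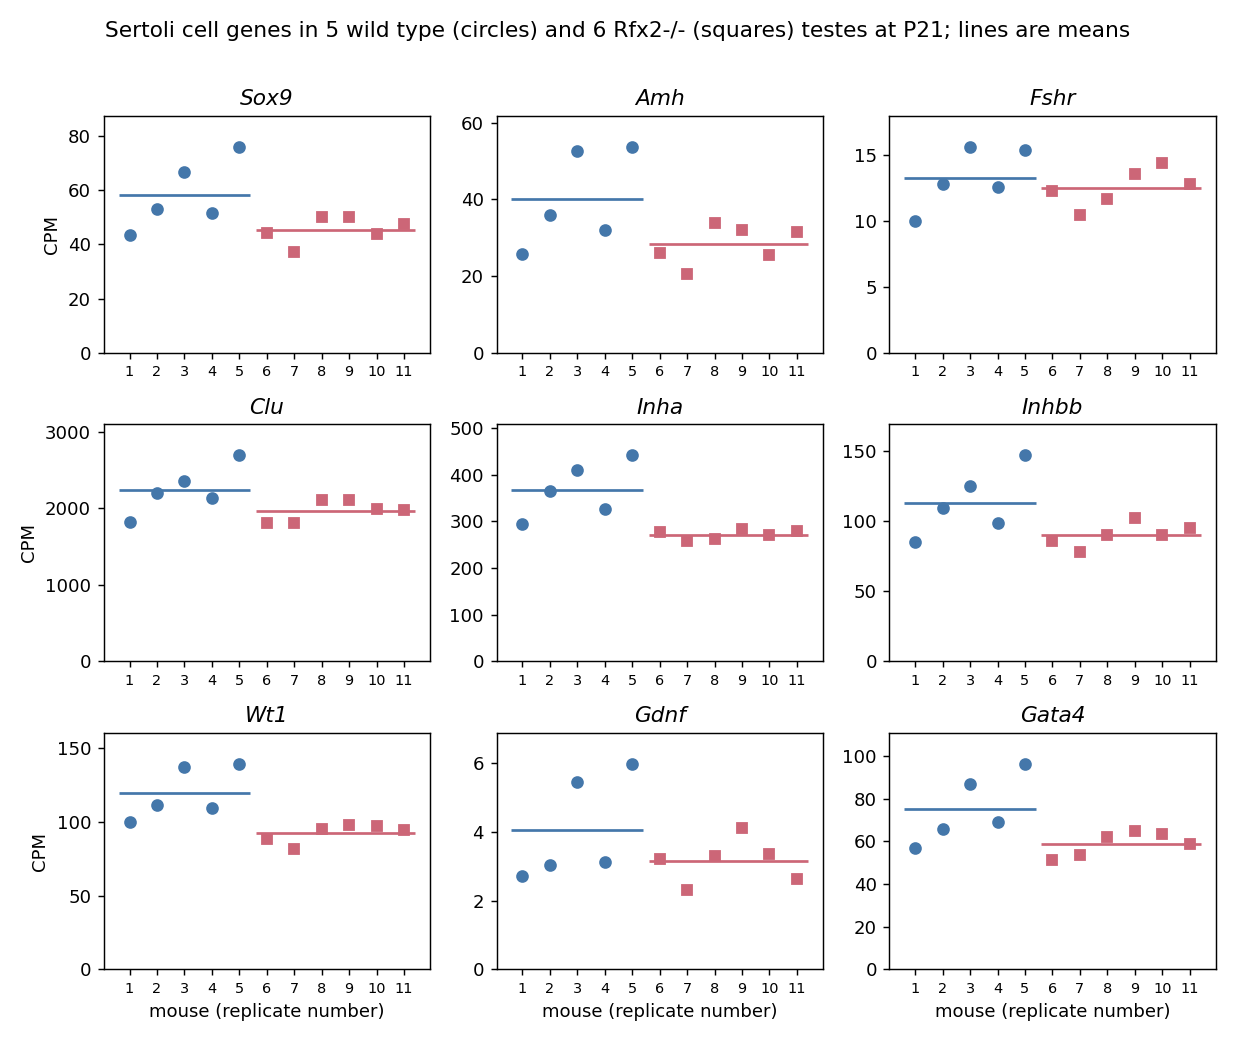
CPM (vertical axis, from 0) of each of the 9 Sertoli cell genes in each mouse (horizontal axis, replicate number), with WT as circles, Rfx2-/- as squares and the genotype means as lines. WT replicates 3 and 5 are the 2 highest WT mice in every panel, and in the Inha and Wt1 panels all 6 Rfx2-/- mice lie below all 5 WT mice.

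The 9 genes differed far more from each other than between genotypes. Levels between genes were set side by side as RPKM, CPM divided by the kilobases of merged exon. Clu, at 871 ± 123 RPKM (SD, n = 5) in WT and 763 ± 53.3 RPKM (SD, n = 6) in Rfx2-/- testes, and Inha, at 249 ± 40.5 and 184 ± 7.27 RPKM, stood apart from the rest and from each other. Wt1 followed at 35.5 ± 5.31 RPKM in WT, then Inhbb at 26.5 ± 5.63, Amh at 24.0 ± 7.52, Gata4 at 19.2 ± 4.16 and Sox9 at 14.0 ± 3.12 RPKM. Among these 5 the ranges of neighbours over the 11 mice overlapped, but Wt1 was above Inhbb and Gata4 above Sox9 in 11 of 11 mice, Inhbb above Amh in 10 and Amh above Gata4 in 9. Fshr, at 5.63 ± 0.976 RPKM in WT, lay below the whole Sox9 range, and Gdnf, at 1.10 ± 0.416 RPKM, below the whole Fshr range. The order of the genotype means was the same in Rfx2-/- testes, from 27.5 ± 1.87 RPKM for Wt1 to 0.854 ± 0.169 RPKM for Gdnf.

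**Figure D2:**
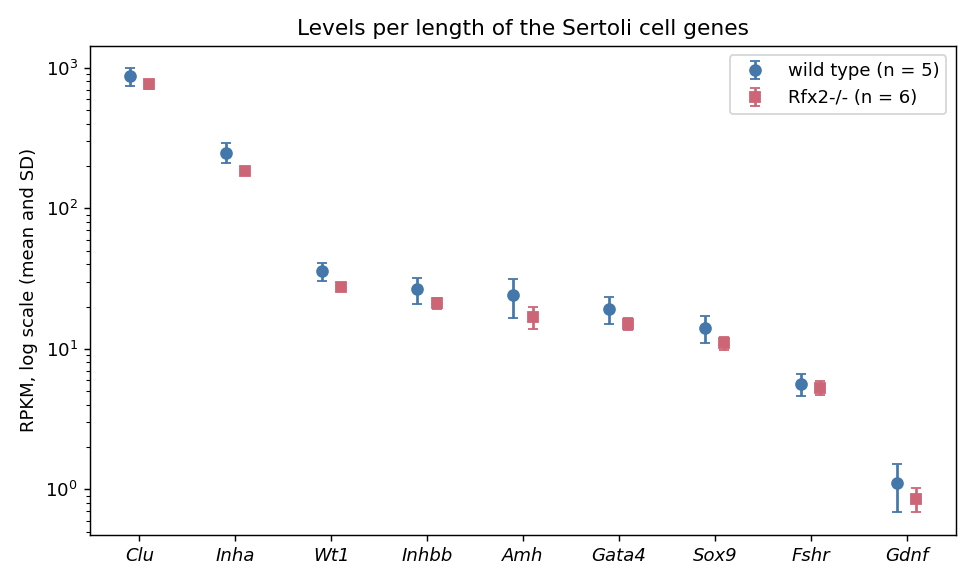
RPKM on a log scale (vertical axis) of the 9 Sertoli cell genes (horizontal axis), with points for genotype means and bars for the SD (circles, 5 WT mice; squares, 6 Rfx2-/- mice). Clu and Inha stand clear of the others, 5 genes follow with WT means from 35.5 to 14.0 RPKM, and Fshr and Gdnf are lowest.

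WT testes varied more than Rfx2-/- testes in every Sertoli cell gene. The coefficient of variation in WT ran from 14.2% for Clu to 37.7% for Gdnf, and in Rfx2-/- from 3.95% for Inha to 19.8% for Gdnf. Over all tested genes 81.8% also had the larger value in WT, so the excess is no trait of Sertoli cell genes. Mice that were high for 1 gene were high for the others. After the genotype means were removed, the 36 pairs of the 9 genes had a median Pearson r of 0.90 over 11 mice, from 0.80 to 0.98, and a median Spearman rho of 0.88. Wt1 followed the mean of the other 8 most closely (r = 0.98) and Fshr least (r = 0.88). These are descriptions and carry no test, since all genes share each library and its composition, and 1412 of the other 15736 tested genes (8.97%) also had an r over 0.9 to the mean of the 9.

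The 5 tested genes most like the 9 by this measure were Mycn, which encodes the transcription factor N-MYC (r = 0.997), Plod1, a lysyl hydroxylase of collagen (0.994), Maged1, a MAGE family gene (0.994), App, the amyloid precursor (0.994), and Slc44a2, a choline transporter-like gene (0.992). None of the 5 was called in edgeR, and their adjusted p-values lay between 0.0817 for App and 0.148 for Mycn.

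As a mean over the 9 genes, the log2 CPM was 6.26 ± 0.31 (SD, n = 5) in WT and 5.95 ± 0.13 (SD, n = 6) in Rfx2-/- testes, a difference of -0.31. The mice with the most round spermatid RNA were lowest in Sertoli RNA, and those with the least were highest. Rfx2-/- replicate 7, with the most round spermatid RNA (517 CPM summed), had the lowest Sertoli mean (5.72), and WT replicate 1, with 368 CPM, the next lowest (5.87). WT replicate 5, with the least (5.66 CPM), had the highest (6.63), followed by WT replicate 3 (10.7 CPM, 6.51). Between these extremes the order was looser. WT replicate 4, with 15.2 CPM, had a Sertoli mean of 6.11, below the 6.16 of WT replicate 2, with 92.1 CPM. After the genotype means were removed, r between the Sertoli mean and the mean log2 CPM of the 9 round spermatid markers was -0.87 over 11 mice (rho -0.87), and -0.72 without WT replicate 1 and Rfx2-/- replicate 7, the mice farthest from the median of the marker level. It is given as a description, with no test, because both are shares of the same library.

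**Figure D3:**
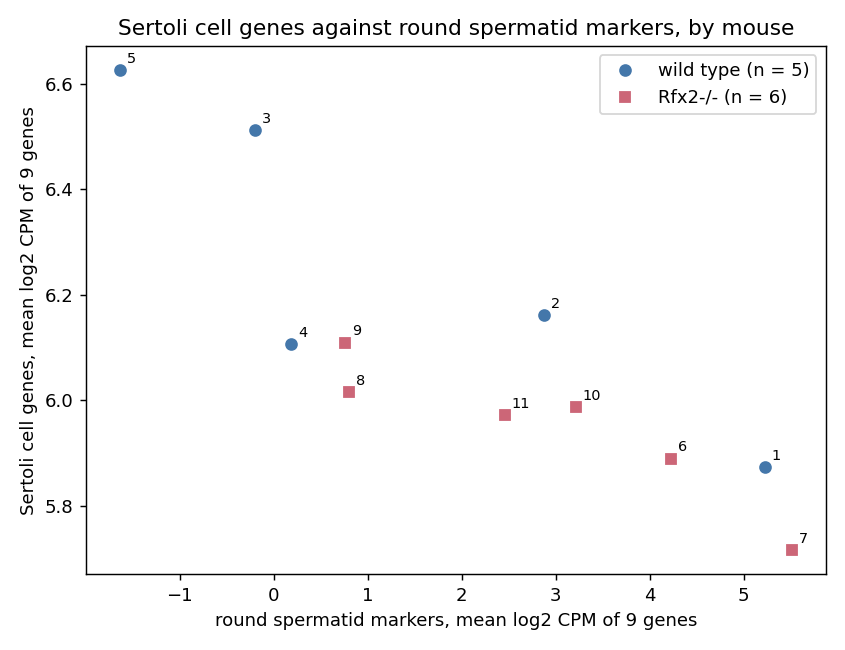
Mean log2 CPM of the 9 Sertoli cell genes (vertical axis) against that of 9 round spermatid markers (horizontal axis) in each mouse, with WT as circles (n = 5) and Rfx2-/- as squares (n = 6), numbered by replicate. WT replicates 3 and 5 lie at the upper left, at 6.51 and 6.63, and Rfx2-/- replicate 7 and WT replicate 1 at the lower right, at 5.72 and 5.87.

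The difference of the Sertoli cell genes rested in part on WT replicates 3 and 5, the 2 highest WT mice for all 9 genes, and leaving these out lowers the WT means whatever sets them apart. Without both, a choice made after seeing the data, the difference of the Sertoli means was -0.10, the log2 fold change of Inha was -0.27 (edgeR adjusted p = 0.0368), that of Wt1 -0.20 (adjusted p = 0.100), and those of Fshr and Gdnf were above 0, at 0.09 and 0.10. With the round spermatid level as a covariate, Inha was at -0.35 (edgeR adjusted p = 0.0150) and Wt1 at -0.27 (adjusted p = 0.0127), Amh was at -0.26 and Fshr at 0.03. The part of germ cell progress in the differences between genotypes was not tested.

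Markers of other testis cells were set beside the Sertoli cell genes. The 5 peritubular myoid markers, which mark the contractile cells around the tubule, had no call and a median log2 fold change of -0.07, and their mean followed the Sertoli mean over the 11 mice (r = 0.89). Of the 7 Leydig cell markers only Hsd3b1, a steroidogenic enzyme, was called (log2 fold change -0.86, SE 0.12, edgeR adjusted p = 0.00126), where 1.94% of all tested genes were called lower. Their median was -0.51, and r to the Sertoli mean was -0.40. The same r was 0.91 for the spermatogonial, 0.79 for the endothelial, 0.63 for the macrophage and -0.87 for the spermatocyte markers. The 6 macrophage and 5 endothelial markers were all below 0, with medians of -0.47 and -0.39 and no call. The 7 tested of 8 spermatogonial, 7 spermatocyte and 9 round spermatid markers had medians of -0.38, 0.49 and 0.98 and no call. At an unadjusted p under 0.05 in edgeR, 2 of the Leydig, 0 of the myoid, 4 of the macrophage, 3 of the endothelial and 0 of the spermatid markers were lower, 4 spermatogonial markers were lower and 1 higher, and 3 spermatocyte markers were higher, where 23.7% of all tested genes were lower and 18.1% higher. At 0.01, DESeq2 and voom added to these calls Lhcgr of the Leydig list, the receptor for luteinizing hormone, as lower, and Ccna1 of the spermatocyte list, the meiotic cyclin A1, as higher. The summed level of the Leydig markers was 164 to 370 CPM in WT and 102 to 331 CPM in Rfx2-/- testes, that of the myoid markers 242 to 490 and 270.0 to 387, that of the macrophage markers 78.1 to 128 and 65.2 to 89.9, and that of the endothelial markers 28.4 to 55.7 and 27.6 to 33.7. For the spermatogonial markers it was 630 to 930 and 913 to 1083 CPM, of which Dmrtb1 alone made up a mean of 418 in WT and 719 CPM in Rfx2-/- testes, and for the spermatocyte markers 3712 to 7183 and 6714 to 8326 CPM. No marker in these lists was at 0 in any mouse, and their part in the differences of the Sertoli cell genes was not tested.

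The Sertoli cell genes were also set against 24 other Sertoli genes. Of these 24, 2 were called lower and 0 higher, where 1.94% of all tested genes were called lower. A log2 fold change below 0 was found for 23, with a median of -0.38 beside the -0.36 of the 9 genes. Over the 11 mice their mean followed that of the 9 with r = 0.68, less closely than the myoid, spermatogonial and endothelial markers did. This mean weighs all 24 alike, and Krt18 (0.44 to 9.13 CPM in WT) and Ptgds (1.65 to 15.3 CPM) varied most among WT mice. Both were highest in WT replicate 1, the WT mouse lowest in the mean of the 9, and their part in this r was not tested. Summed CPM of the 24 were 2676, 3402, 3790, 3442 and 4191 in WT replicates 1 to 5, beside 2446, 2956, 3265, 2844 and 3672 for the 9. When libraries were scaled by the mean level of these 24 genes instead of by TMM, the median over all tested genes moved to 0.41 and the 9 genes were at -0.05 for Amh, 0.03 for Inha, 0.09 for Wt1 and Gdnf, 0.10 for Sox9, 0.11 for Gata4, 0.14 for Inhbb, 0.27 for Clu and 0.38 for Fshr. This scaling moves every gene up together, because the 24 genes were themselves lower under TMM, so the signs of these values carry no information of their own. None of the 9 was called at 0.01, where 38.2% of all genes were called higher. Fshr (SE 0.12, edgeR adjusted p = 0.0198) passed 0.05, where 50.3% of all genes were called higher. All 9 were below the median of all tested genes under this scaling, as they were under TMM. A shift common to all genes leaves such a place nearly unchanged, so this is no separate support. The scaling genes include genes called lower here, and Krt18, which was not called but was at -1.89 under TMM. With scaling by the median one of the 24, chosen after seeing the data, the values ran from -0.11 for Amh to 0.30 for Fshr, with Inha at -0.05 and Wt1 at 0.00.

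**Figure D4:**
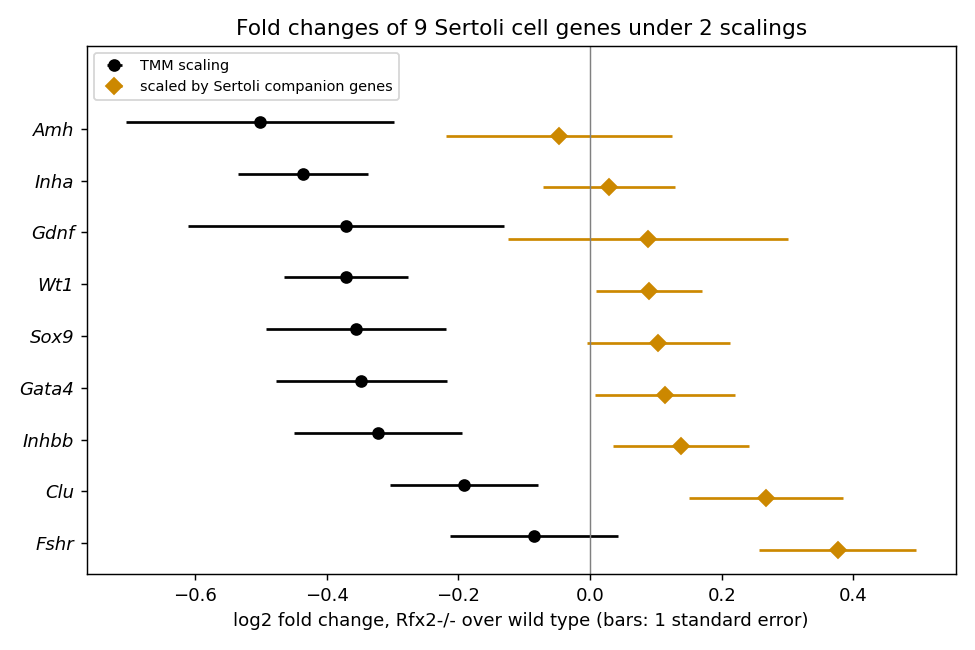
Log2 fold changes of the 9 Sertoli cell genes, Rfx2-/- over WT (horizontal axis; bars are 1 SE), with TMM scaling (circles) and with libraries scaled by 24 other Sertoli genes (diamonds). All 9 circles lie below 0, from -0.50 to -0.08, and the diamonds lie between -0.05 and 0.38, with Fshr farthest to the right under both.

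The pair of other Sertoli genes called lower are signalling and lineage genes. Pdgfa, the platelet-derived growth factor chain that Sertoli cells send to Leydig and myoid cell precursors, had 18.8, 16.7, 11.2, 17.0 and 13.2 CPM in WT and 4.47, 5.24, 5.73, 5.51, 5.17 and 6.66 CPM in Rfx2-/- testes. The genotypes lay far apart, and the WT mice poorest in spermatid RNA, replicates 3 and 5, were here the lowest of WT and not the highest. Which cells of these whole testes carried the Pdgfa RNA was not tested. The log2 fold change was -1.49 (SE 0.15, edgeR adjusted p = 0.000191), and it was -1.04 (adjusted p = 0.000451) when scaled by the mean of the 24 genes. Lhx9, a LIM homeobox gene of the early gonad, was at 4.61 ± 0.218 CPM (SD, n = 5) and 2.99 ± 0.296 CPM (SD, n = 6), a log2 fold change of -0.62 (SE 0.10, edgeR adjusted p = 0.00375). It was called in 4 of the 11 fits that left out 1 mouse, and its adjusted p rose to at most 0.0131 without WT replicate 2, 3 or 5 or Rfx2-/- replicate 6, 7, 10 or 11. Scaled by the 24 genes, it was at -0.17 (adjusted p = 0.149). Which cells carried the Lhx9 RNA was not tested either. Cst9, a cystatin made by Sertoli cells, came next by p, at 355 ± 42.9 CPM (SD, n = 5) and 281 ± 12.5 CPM (SD, n = 6), and was not called by edgeR (log2 fold change -0.34, adjusted p = 0.0275), but was by DESeq2 and by voom.

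Partners of the hormones Amh, Inha and Inhbb numbered 16, of which 1 was called lower, 0 higher, and 12 lay below 0 (median -0.24). Of all tested genes, 1.94% were called lower. The called gene was Tgfbr3, or betaglycan, the co-receptor through which inhibin displaces activin. Its level fell, with 32.3 ± 4.75 CPM (SD, n = 5) in WT and 19.7 ± 1.87 CPM (SD, n = 6) in Rfx2-/- testes, a log2 fold change of -0.71 (SE 0.11, edgeR adjusted p = 0.00250), with the genotypes apart and the call held without any 1 mouse. Scaled by the 24 genes it was at -0.26 (adjusted p = 0.0824). Amhr2, the receptor of AMH, was at 405 ± 29.4 CPM (SD, n = 5) and 359 ± 13.7 CPM (SD, n = 6) and was not called (log2 fold change -0.17, edgeR adjusted p = 0.0776).

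The other members of the inhibin and activin system were not called. Inhba, the beta A chain, had only 6 to 45 counts per mouse, at 0.729 ± 0.352 CPM (SD, n = 5) against 0.325 ± 0.0973 CPM (SD, n = 6), and had a log2 fold change of -1.17 (SE 0.33, edgeR adjusted p = 0.0398). Acvr2a, a type II activin receptor, was at 46.5 ± 5.57 CPM (SD, n = 6) in Rfx2-/- and 39.5 ± 1.52 CPM (SD, n = 5) in WT testes, with a log2 fold change of 0.24 (edgeR adjusted p = 0.0664). Fst, the activin-binding protein follistatin, was at -0.34 (edgeR adjusted p = 0.254).

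Of the 6 partners of Gdnf, 2 were called lower and 0 higher, with a median of -0.16, where 1.94% of all tested genes were called lower. Neither part of its receptor was called. Gfra1, the GDNF-binding co-receptor, was at 7.22 ± 2.53 CPM (SD, n = 5) and 7.55 ± 1.85 CPM (SD, n = 6) with a log2 fold change of 0.07 (edgeR adjusted p = 0.836), and Ret, the signalling kinase, at -0.13 (adjusted p = 0.581). Ncam1, the cell adhesion molecule that can also take up GDNF with Gfra1, had 11.3, 6.96, 2.76, 7.29 and 3.55 CPM in WT and 2.27, 2.35, 1.11, 1.42, 0.9997 and 1.09 CPM in Rfx2-/- testes. The genotypes did not overlap, although WT replicates 3 and 5 came close to the highest Rfx2-/- mice. The log2 fold change was -2.04 (SE 0.39, edgeR adjusted p = 0.00957), and the call was held in 2 of 11 fits with 1 mouse left out, those without WT replicate 3 or 5. Without any other mouse the adjusted p was at most 0.0290. Scaled by the mean of the 24 genes, Ncam1 was at -1.58 (edgeR adjusted p = 0.00829), and by the median one at -1.75 (adjusted p = 0.0268). Bcl6b, a repressor that GDNF induces in spermatogonial stem cells, fell too, with 5.22 ± 0.596 CPM (SD, n = 5) in WT and 3.20 ± 0.462 CPM (SD, n = 6) in Rfx2-/- testes, a log2 fold change of -0.70 (SE 0.13, edgeR adjusted p = 0.00762). Its call was held in 2 of the 11 fits, those without WT replicate 5 or Rfx2-/- replicate 9, and the adjusted p was otherwise at most 0.0223. Scaled by the 24 genes it was at -0.26 (adjusted p = 0.125). Etv5, an ETS factor that GDNF induces, was not called (log2 fold change -0.18, edgeR adjusted p = 0.182).

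Among the 8 genes of the Fshr pathway and the 6 partners of Gata4 and Wt1, 0 were called in edgeR, DESeq2 or voom, and in edgeR 2 and 1 of them were lower at an unadjusted p under 0.05. By edgeR's adjusted p, Gnas, the stimulatory G protein alpha chain that couples FSHR to adenylyl cyclase, was nearest to a call (7.20 ± 0.687 CPM, SD, n = 5, against 5.38 ± 0.728 CPM, SD, n = 6, log2 fold change -0.42, adjusted p = 0.0396). Its locus holds overlapping transcripts, and reads on exons of more than 1 gene had been left out of the counts, so its level is uncertain. Igf1r, the IGF receptor that FSH signalling needs in Sertoli cells, was at -0.45 (edgeR adjusted p = 0.0531), and Prkar1a, a regulatory subunit of protein kinase A, at 0.12 (adjusted p = 0.135). Gata6, the relative of Gata4 in Sertoli cells, was at -0.31 (edgeR adjusted p = 0.0888), Cbx2, a Polycomb gene needed for testis formation, at -0.26 (adjusted p = 0.244) and Nr5a2, a nuclear receptor, at -0.35 (adjusted p = 0.310).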

How the data were processed

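Decapsulated testes at P21 gave RNA of 11 mice, 5 WT and 6 Rfx2-/-, and mice were grouped by the genotype in the labels. According to the authors, TruSeq libraries were processed with CASAVA 1.8.2 and mapped with STAR 2.4 to GRCm38, reads with more than 1 position were discarded, and the deposited values are raw counts of reads on merged exons of protein coding isoforms, from featureCounts 1.4.6, without reads that overlap exons of different genes. Genes with near-identical copies can therefore be undercounted.

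The analysis of the counts used edgeR 4.0.16 in R 4.3.3: filterByExpr with genotype as the group, TMM scaling, glmQLFit and glmQLFTest over all 11 mice without covariates. Fold changes are log2, Rfx2-/- over WT, and CPM use TMM-scaled library sizes, with a prior count of 2 for log2 CPM. A gene was called when its p, adjusted by Benjamini-Hochberg over all 15745 tested genes, was at most 0.01. Positions, lengths and symbols (22293 of 23074 genes) were those of GENCODE M21, on GRCm38. The 9 genes and all lists were chosen with earlier results of these data known. Named were the 9 genes, in each partner list the called genes or, where fewer than 3 were called, the 3 with the smallest p, with Amhr2, Gfra1, Ret, Acvr2a, Inhba and Fst always, and the 5 genes most like the 9.

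Alternatives were DESeq2's size factors, total counts, scaling by the mean of 24 other Sertoli genes, the Wald test (DESeq2 1.42.0), voom with quality weights per sample (limma 3.58.1), edgeR's robust prior, a filter of 1 count in all or of 50 counts on average, a prior count of 0.5, an adjusted p of 0.05, an unadjusted p of 0.01, a covariate of round spermatid markers, the longest transcript as length, and each mouse left out; leaving out WT replicates 3 and 5 together and scaling by the median Sertoli gene were chosen after seeing the data. The fits were also run on simulated counts, whose outcome supports no result here. Tables used pandas 2.3.3 and SciPy 1.17.1, and figures matplotlib 3.10.9, in Python 3.11.15.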

Additional observations from a re-analysis of the deposited data

Results flagged for a closer look

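By Dixon's test, 3 of 80 groups of mice held a value far from the others of its genotype, where chance gives about 1 in 20. The groups were values of mice within a genotype. They covered the CPM of the 9 Sertoli cell genes, Rfx2, Hsd3b1 and the other Sertoli and partner genes named, except Krt18 and Ptgds. The mean of the 9 genes and the summed marker levels of the other cell types were also included. None of the values of the 9 genes stood apart. Krt18 and Ptgds were not put to Dixon's test. Krt18 had 9.13 CPM in WT replicate 1, against 0.44 to 1.72 CPM in the other WT mice. Ptgds had 15.3 CPM in that mouse, against 1.65 to 6.24 CPM. Ret, the signalling kinase of the GDNF receptor, had 10.2 CPM in Rfx2-/- replicate 9, against 6.27 to 7.61 CPM in the other Rfx2-/- mice. Etv5, which GDNF induces, had 11.5 CPM in Rfx2-/- replicate 8, against 14.8 to 15.8 CPM in the other Rfx2-/- mice. The summed round spermatid markers reached 368 CPM in WT replicate 1, against 5.66 to 92.1 CPM in the other WT mice.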

How the results depend on the processing

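Scaling by other Sertoli genes moved all genes up together, and the 9 genes with them. With libraries scaled by the mean of 24 other Sertoli genes, log2 fold changes turned above 0 for Sox9 (0.10), Fshr (0.38), Clu (0.27), Inha (0.0287), Inhbb (0.14), Wt1 (0.0888), Gdnf (0.0879) and Gata4 (0.11), and the difference of the mean level of the 9 genes was 0.15. With the median one of the 24 they did so for Sox9 (0.0293), Fshr (0.30), Clu (0.18), Inhbb (0.0622), Wt1 (0.0041), Gdnf (0.0308) and Gata4 (0.0392). These scalings moved the median of all genes by construction, from -0.05 to 0.41 and 0.30, and total counts moved it to -0.22. Fshr was above 0 with voom (0.0141), with the spermatid covariate (0.0342) and without WT replicates 3 and 5 (0.0948), where Gdnf was also above 0 (0.0977). In the 11 fits with 1 mouse left out all 9 genes were below 0, but single mice moved 6 of them by over 1.5 times. Without WT replicate 5, Sox9 was at -0.23, Clu at -0.10, Inhbb at -0.20, Gdnf at -0.18, Gata4 at -0.23 and Fshr at -0.01, and without WT replicate 3, Gdnf was at -0.23 and Fshr at -0.01. Fshr was also at -0.17 without WT replicate 1, -0.04 without Rfx2-/- replicate 7 and -0.13 without Rfx2-/- replicate 10.

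Of the 9 genes, 0 were called, against 2 with DESeq2, 1 with voom, 2 at an adjusted p of 0.05, 2 at an unadjusted p of 0.01, and 0 to 1 with 1 mouse left out (1 without WT replicate 1). Of all genes, 420 were called, against 6183 and 120 with scaling by the mean and the median of the 24 genes, 2057 with DESeq2, 1049 with voom, 1039 with the spermatid covariate, 2350 and 2784 at the other limits of p, and 229 (without Rfx2-/- replicate 10) to 585 (without WT replicate 1) with 1 mouse left out, with 272 or fewer without WT replicate 2 or any 1 of the Rfx2-/- mice. The lower share of calls was 72.6%, against 2.85% with scaling by the mean of the 24 genes, 50.8% by their median, 44.3% with DESeq2 and 81.7% with total counts. Of the 60 other Sertoli and partner genes, 5 were called, against 13 and 0 with those 2 scalings, 3 without the filter, 10 and 14 at the other limits of p, and 2 to 4 with 1 mouse left out (2 or 3 without WT replicate 2, 3 or 4 or Rfx2-/- replicate 6, 7, 8, 10 or 11). Apart from the scalings by construction, the cause was not tested. No paired analysis was possible because the sample labels give no litter, so a litter effect was not modelled. Among the 9 genes, Gdnf had both the fewest counts and the widest spread among WT mice.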

Other observations

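Other Sertoli genes that passed an adjusted p of 0.05 but not 0.01 in edgeR included Nr0b1, which encodes the nuclear receptor DAX1, at 68.2 ± 12.5 CPM (SD, n = 5) in WT and 49.9 ± 6.46 CPM (SD, n = 6) in Rfx2-/- testes (log2 fold change -0.45, SE 0.13, adjusted p = 0.0398). Trf, which encodes transferrin, a classic Sertoli secretion of the mature testis, was at only 2.08 ± 0.472 CPM (SD, n = 5) and 1.31 ± 0.276 CPM (SD, n = 6), or 24 to 75 counts per mouse (log2 fold change -0.67, SE 0.20, edgeR adjusted p = 0.0449). Both were chosen for mention after their values were seen.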
